A study of Mus musculus with 8 samples.

Results

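The genes described here are 55 members of the cell cycle engine and of DNA replication licensing, chosen by name among the 13558 transcripts of a table of mouse embryonic stem (mES) cells. All 55 were found in the table. They were grouped by role into 8 cyclins, 7 cyclin-dependent kinases and Cks adaptors, 10 E2F and DP transcription factors, 6 switches and checkpoint kinases that set Cdk activity, 14 licensing and replication fork genes, and 10 mitotic, spindle checkpoint and ubiquitin ligase genes. The rule that chose them goes by gene symbol and uses no measured value.

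The study sequenced mRNA of mES cells that carry or have lost Trim71, an RNA-binding ubiquitin ligase. 4 libraries are labelled KO (genotype Trim-/-) and 4 are labelled WT (genotype Trimfl/fl). All came from male C57BL/6 mES cells grown with serum and LIF, derived from mice homozygous for the floxed Trim71 allele that also carried a tamoxifen-inducible Cre at Rosa26. WT cells therefore hold the floxed allele and the Cre as well and are not wild-type cells in the strict sense. The labels give 500 nM 4-hydroxytamoxifen for 2 days as the treatment that induced the mutation, and a further culture of at least 7 days. The study's methods name a solvent control and a lower dose. Cells were sorted for the surface antigen SSEA-1 before lysis. Only 2 cell clones were used: clone E3 gave 3 KO and 2 WT libraries, and clone 1 gave 1 KO and 2 WT libraries. KO1 to KO4 and WT1 to WT4 name the libraries in deposit order. The labels also give a day, and days 3, 4 and 5 each hold 1 library of both genotypes (KO2 and WT2, KO3 and WT3, KO4 and WT4). Nothing states that the libraries of a genotype and clone came from separate cultures, so the p-values measure the spread between these libraries, which may in part be technical.

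Values are normalized read counts after a batch correction by the authors, who do not name the batch. In the 13350 transcripts with no value at the floor of 1 the clone effect was 0 within rounding. The batch was therefore taken to be the clone, and the step is called the clone correction here. The reads recovered from the values added up to between 6726104 (WT2) and 25005468 (WT3) per library. The deleted exon is the last of 4, and the other exons can still be transcribed. Trim71 itself had 500, 793, 733 and 247 normalized reads in KO1 to KO4 and 2782, 2736, 1988 and 2584 in WT1 to WT4, so that the groups did not overlap, in the direction of the labels. Its log2 difference was -2.39 (SE 0.35), and an exact permutation test of the normalized reads (two-sided) gave 0.0286, the smallest p that 70 assignments of 8 libraries allow. All 12 markers of ES cells looked up were in the table, with a summed level of 78261 to 103849 in KO and 71743 to 92290 in WT. Of the 10 fibroblast markers 5 were in the table and added up to 383 to 783 in KO and 403 to 678 in WT, and Col3a1, Dcn, Lum, Postn and Prrx1 were not among the transcripts analysed. The 7 neural markers in the table added up to 1648 to 2121 in KO and 1664 to 2262 in WT, the 9 endoderm markers to 4427 to 6461 and 2289 to 5644, and the 5 mesoderm markers to 187 to 243 and 140 to 223. In bulk RNA a smaller number of cells of a kind, for instance of cells in S phase, and less RNA per cell cannot be told apart.

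The cell cycle is driven by kinases that work only with a cyclin bound to them. D-type cyclins with Cdk4 or Cdk6, and E-type cyclins with Cdk2, move a cell from G1 into S phase by releasing E2F transcription factors from Rb proteins, and E2F factors then switch on the genes for DNA synthesis. In late mitosis and G1 the origin recognition complex, Cdc6 and Cdt1 load the helicase made of Mcm2 to Mcm7 onto origins, which licenses them to fire once in the S phase that follows. Cdk1 with cyclin A or B starts mitosis after Cdc25 phosphatases have removed the inhibitory phosphate that Wee1 puts on, and the anaphase-promoting complex with Cdc20 ends it. mES cells are known for short gap phases and a large share of cells in S phase.

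Promoter sequences, which the choice by gene symbol did not use, were searched for motifs of cell cycle genes. The members were chosen as known cell cycle genes, so the shares below are descriptions only. RefSeq promoters (GRCm38.p6, from 250 bases before to 50 after a start site) were at hand for 45 of the 55 members. An E2F-type motif, searched on both strands as TTTCCCGC, TTTGGCGC, TTTCGCGC or TTTGCCGC, was found for 15 of the 45 (33.3%), against 4.76% of the 10158 table genes with a promoter and 2.26% of all 32851 promoters. The motif of the cell cycle genes homology region (CHR), TTTGAA on either strand, was found for 15 members (33.3%) against 13.6% of the table genes and 17.9% of all promoters. A CCAAT box, CCAAT on either strand, was found for 32 members (71.1%) against 43.3% and 37.4%. A member or table gene counted if any of its promoters matched, whereas the shares of all promoters count single promoters. The share of table genes is therefore the like one. These motifs differ in their letters, but matches may still touch each other within a promoter. The windows below are those around the match nearest to the start site whose 30-base window was complete. They were drawn only for the 16 members given values in every library by the rule of the processing section. The 6 members given such values after these were seen, E2f8 among them, were not searched for windows. Windows are given 5′ to 3′ on the strand of the gene. Capitals mark the motif or its reverse complement.
Cdk2, E2F-type, chr10:128705173-128705202, minus strand: aaccaggaactGCGGGAAAgttgtgcagct
Cdc25a, E2F-type, chr9:109875501-109875530, plus strand: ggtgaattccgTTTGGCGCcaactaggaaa
Mcm3, E2F-type, chr1:20820275-20820304, minus strand: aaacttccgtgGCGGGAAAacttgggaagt
Mcm5, E2F-type, chr8:75109349-75109378, plus strand: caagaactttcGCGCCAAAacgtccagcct
E2f2, CHR, chr4:136180739-136180768, plus strand: atagcctgtgtgTTTGAAtggtgtggaaca
Cdc20, CHR, chr4:118437344-118437373, minus strand: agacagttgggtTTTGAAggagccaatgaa
The E2F-type matches of the 45 promoters fell on Cdk1, Cdk2, E2f2, E2f3, E2f7, Tfdp1, Cdc25a, Chek2, Cdc6, Cdt1, Mcm3, Mcm5, Mcm6, Mcm7 and Orc1, so that 4 helicase subunits were among them. The CHR matches fell on mitotic genes such as Plk1, Aurka, Bub1b, Cdc20 and Ccnb2, and on some S phase genes. A match is a run of letters and not a measured binding site.

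The comparison asked which members change in level when Trim71 is lost. Few passed the test. Of the 55 members, 2 passed an unadjusted p under 0.05 (3.64%), which is below the 9.09% of all transcripts that did. E2f2 was higher in KO, as were 4.62% of all transcripts at this p, and Tfdp2 was lower, as were 4.46%. At an unadjusted p under 0.05 with a fold change of at least 1.5, the criterion the study used, 0 members were called against 4.25% of all transcripts. No member had an adjusted p under 0.05 with limma, and neither did any other transcript (0%), the smallest adjusted p of a member being 0.491. The median log2 difference of the members, KO minus WT, was -0.05 against 0.00 for all transcripts. 21 members were above 0 and 34 below, against 6774 and 6784 of all transcripts. Leaving out each library moved the median of the members between -0.07 (without KO1 or WT3) and 0.00 (without KO3). It was -0.01 with the trend of each library with GC content and length removed. Single members ranged from -0.49 (Bub1) to 0.53 (E2f2). The 95% interval of the change lay within 1.5-fold in both directions for 40 members and within 2-fold for 51, and the wider intervals belonged to Ccnd1, Ccne2, Chek1 and Bub1. After the clone correction, spread within a genotype was small for most members. The median coefficient of variation was 9.58% in WT and 11.4% in KO, and 8.05% in KO without KO3. The correction took out the mean difference between the clones, so this spread and every SD given here leave that part out.

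**Figure D1:**
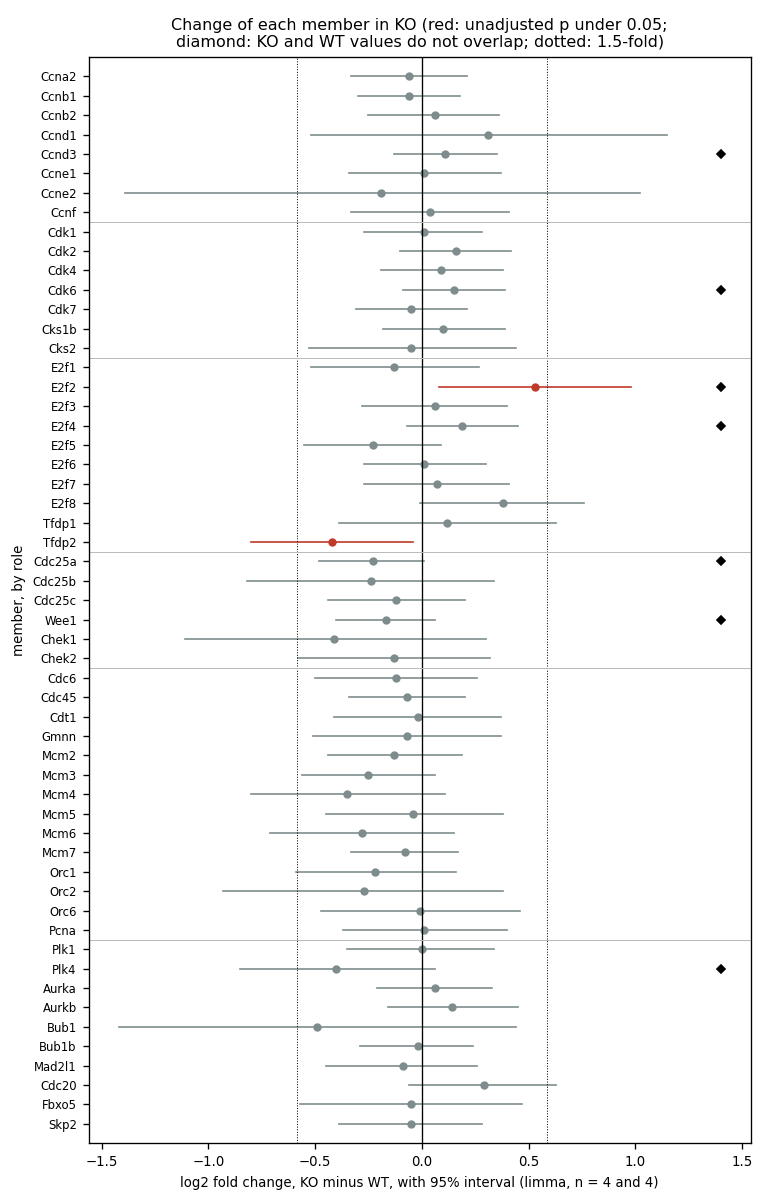
Log2 fold change of each of the 55 members, KO minus WT, on the horizontal axis (point) with its 95% interval from limma (line, n = 4 and 4), ordered by role from top to bottom. Red marks the 2 members with an unadjusted p under 0.05, diamonds mark the 7 members whose KO and WT values do not overlap, and dotted lines stand at 1.5-fold; most intervals lie between the dotted lines.

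KO and WT values did not overlap for 7 members (12.7%), against 10.1% of all transcripts. KO lay above WT for Ccnd3, Cdk6, E2f2 and E2f4, which is 7.27% of the members against 5.48% of all transcripts. KO lay below WT for Cdc25a, Wee1 and Plk4, or 5.45% against 4.62%. These shares are near those of the whole table. With the clone correction undone, 5 members were apart against 6.90% of the transcripts: E2f4, Cdc25a, Wee1 and Plk4 remained, Tfdp2 was added, and Ccnd3, Cdk6 and E2f2 overlapped. The response to genotype did not differ detectably between the clones for any member: 0 passed an adjusted p under 0.05 for genotype by clone, against 0.0885% of all transcripts, and 0 members against 351 transcripts passed an unadjusted p under 0.05. Clone 1 has a single KO library, so this test has little power.

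**Figure D2:**
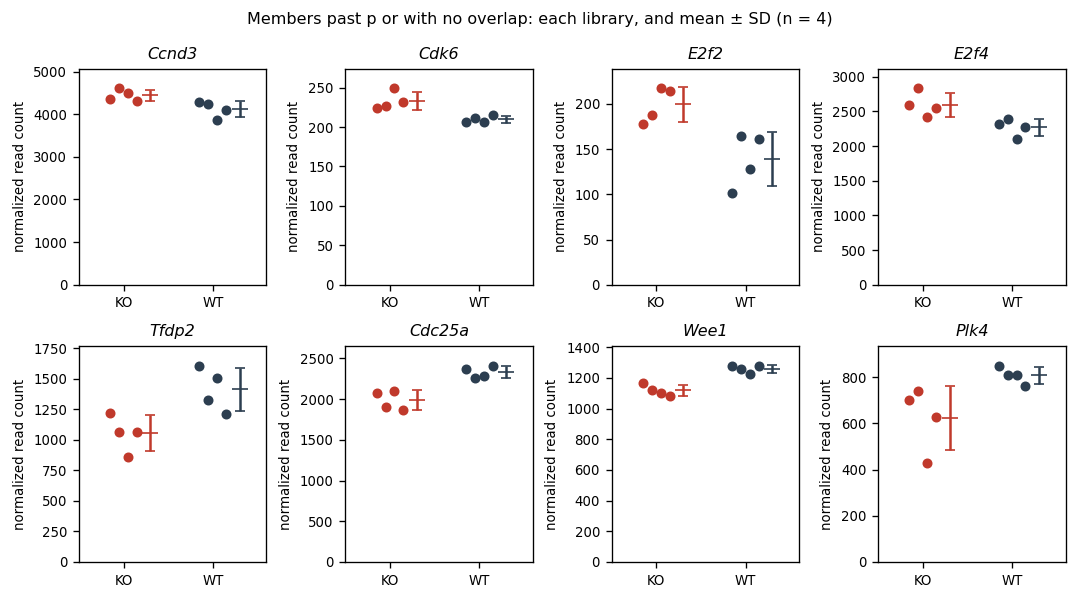
Normalized read count (vertical axis, from 0) in each KO (red) and WT (dark) library for the 8 members with an unadjusted p under 0.05 or with no overlap of the groups, with the mean and SD beside the points (n = 4). E2f2 and Tfdp2 are the 2 with an unadjusted p under 0.05 on the log2 scale, and the gaps of Ccnd3 (4301 against 4298) and Cdk6 (224 against 215) between the nearest KO and WT libraries are small.

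No cyclin was called. Of 8 cyclins 0 passed an unadjusted p under 0.05, and their log2 differences ran from -0.19 (Ccne2) to 0.31 (Ccnd1) with a median of 0.02. Ccnd3, a D-type cyclin that binds Cdk4 and Cdk6, had 4361, 4606, 4500 and 4301 normalized reads in KO1 to KO4 and 4298, 4245, 3872 and 4101 in WT1 to WT4. Every KO library was above every WT library, but by as little as KO4 over WT1. The change was 1.08-fold (95% interval 0.912 to 1.27, adjusted p = 0.750, limma). Ccnd1, the other D-type cyclin among the members, had 1864, 2553, 1674 and 1929 reads in KO and 1939, 2601, 844 and 1658 in WT. Its groups overlapped, WT3 was the lowest of all 8 libraries, and without WT3 the log2 difference turned from 0.31 to -0.15. Levels of genes were set beside each other per kilobase of transcript, which allows for length but not for GC content. WT cells held 1954 ± 90.1 (SD, n = 4) normalized reads of Ccnd3 per kilobase against 471 ± 195 of Ccnd1.

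The E-type cyclins, which carry Cdk2 into S phase, differed in level from each other and not detectably between genotypes. Per kilobase Ccne1 stood at 1578 ± 243 and Ccne2 at 77.5 ± 24.8 in WT (SD, n = 4). Ccne2 is also the member with the widest spread in KO: its values were 277, 283, 68.9 and 247 in KO and 216, 336, 158 and 222 in WT. KO3 was the lowest and WT3, of the same day, the next lowest. The log2 difference of Ccne2 turned from -0.19 to 0.24 without KO3 and to 0.16 without WT2. The mitotic cyclins Ccnb1 (log2 difference -0.06) and Ccnb2 (0.06), the S phase and mitotic cyclin Ccna2 (-0.06) and the ubiquitin ligase subunit Ccnf (0.04) all had a 95% interval within 1.5-fold.

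The kinases had narrower intervals than the cyclins. All 7 of the kinases and Cks adaptors had a 95% interval within 1.5-fold, their median log2 difference was 0.09, and 0 passed an unadjusted p under 0.05. Cdk6 had 224, 227, 249 and 232 normalized reads in KO1 to KO4 and 206, 212, 207 and 215 in WT1 to WT4. KO lay above WT throughout by a small step, 1.11-fold (95% interval 0.943 to 1.31, adjusted p = 0.670, limma). With the trend of each library with GC content and length removed, the log2 difference of Cdk6 went from 0.15 to 0.43, and to 0.44 with day as a block too, both with an unadjusted p under 0.05. Cdk2, the partner of E-type cyclins and of cyclin A, had 2222, 2032, 2013 and 1975 reads in KO and 1978, 1705, 1907 and 1804 in WT. Only KO4 and WT1 kept the groups of Cdk2 from being apart, and the change was 1.12-fold (0.933 to 1.34, adjusted p = 0.679, limma). Cdk4 had the highest value of the kinases with 5159, 5036, 4870 and 4851 reads in KO and 4806, 5186, 4056 and 4692 in WT, and its groups overlapped (adjusted p = 0.804, limma). Per kilobase of transcript WT cells held 2282 ± 229 reads of Cdk4 and 18.2 ± 0.345 of Cdk6 (SD, n = 4), the highest and the lowest level among the kinases. The small SD of Cdk6 is that of values after the clone correction, and WT2 held only 114 recovered reads of it. Cdk6 was also the lowest of all 55 members per kilobase, on a transcript of 11.52 kb. Cdk1, the kinase of mitosis, changed 1.01-fold (0.832 to 1.22), and Cdk7, which activates the other Cdks, 0.964-fold (0.806 to 1.15).

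The E2F and DP factors held both members that passed the unadjusted p. 2 of 10 passed, beside 9.09% of all transcripts, and whether so small a group differs from the whole table was not tested. Of the 10, 7 had a positive and 3 a negative log2 difference, and the median was 0.06. E2f2, an activator E2F that Rb proteins hold back, is the least abundant member by reads. It had 178, 188, 217 and 214 normalized reads in KO1 to KO4 and 101, 164, 128 and 161 in WT1 to WT4. All KO libraries were above all WT libraries, and WT1 and WT3 were the lowest. The mean was 199 ± 19.2 in KO and 138 ± 29.9 in WT (SD, n = 4), or 1.45-fold with a 95% interval of 1.06 to 1.98 (adjusted p = 0.491, limma). Leaving out KO3, KO4 or WT3 in turn took its unadjusted p above 0.05, with a log2 difference of 0.50, 0.42 and 0.47 in place of 0.53.

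Tfdp2, a DP partner of E2F factors, went the other way. Its values were 1222, 1067, 863 and 1062 in KO and 1607, 1327, 1505 and 1208 in WT. The groups overlapped by KO1 and WT4 alone, and KO3 was the lowest of the 8. The mean was 1054 ± 147 in KO and 1412 ± 178 in WT (SD, n = 4), 0.745-fold with a 95% interval of 0.573 to 0.970 (adjusted p = 0.516, limma). Leaving out any of KO2, KO3, KO4, WT1, WT2 and WT3 took its unadjusted p above 0.05, with log2 differences from -0.47 to -0.34 in place of -0.42. With the trend with GC content and length removed the difference was -0.23 and did not pass either. Tfdp1, the other DP partner, had a log2 difference of 0.12 with overlapping groups. Per kilobase it stood at 607 ± 120 in WT against 192 ± 24.3 for Tfdp2 (SD, n = 4).

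E2f4, a repressor-type E2F that works with Rb-family proteins in resting cells, had the highest level of the E2F genes. Its values were 2595, 2832, 2416 and 2548 in KO and 2314, 2388, 2105 and 2277 in WT. KO lay above WT throughout, with KO3 only just above WT2. The change was 1.14-fold (95% interval 0.955 to 1.37, adjusted p = 0.640, limma). E2f8, an atypical E2F that represses E2F targets late in S phase, had 676, 835, 651 and 756 reads in KO and 544, 691, 467 and 560 in WT. WT2 lay among the KO libraries, and the change was 1.30-fold (95% interval 0.995 to 1.70, adjusted p = 0.555, limma). The other E2F genes were not called: E2f1 had a log2 difference of -0.13, E2f3 of 0.06, E2f5 of -0.23, E2f6 of 0.01 and E2f7 of 0.07, with overlapping groups for each. In WT the E2F genes fell per kilobase from E2f4 (1140 ± 60.1) over E2f1 (354 ± 46.3) and E2f5 (269 ± 32.6) to E2f7 (85.8 ± 2.98) and E2f2 (29.2 ± 6.31, SD, n = 4). E2f6 (195), E2f8 (153) and E2f3 (143) lay between these, and the neighbours E2f8 and E2f3 differed by less than their SDs of 25.2 and 18.6.

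The switches of Cdk activity all had a negative log2 difference, against 6784 of all 13558 transcripts, and 0 of 6 passed an unadjusted p under 0.05. Their signs come from the same libraries and are not independent. The differences ranged from -0.41 (Chek1) to -0.12 (Cdc25c) with a median of -0.20. Cdc25a, the phosphatase that frees Cdk2 and Cdk1 from inhibitory phosphate, had 2080, 1900, 2100 and 1868 normalized reads in KO1 to KO4 and 2372, 2264, 2281 and 2411 in WT1 to WT4. The KO libraries all lay below the WT libraries. The mean was 1987 ± 120 in KO and 2332 ± 71.1 in WT (SD, n = 4), 0.850-fold with a 95% interval of 0.716 to 1.01 (adjusted p = 0.562, limma). The unadjusted p of Cdc25a was under 0.05 in 8 of 19 alternative fits, among them the fit without KO3, where the log2 difference was -0.26.

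Wee1, the kinase that opposes Cdc25a, had values on the same side. They were 1168, 1124, 1104 and 1084 in KO and 1280, 1260, 1223 and 1276 in WT. The groups were apart, with a mean of 1120 ± 35.9 against 1260 ± 25.9 (SD, n = 4), and the change was 0.889-fold (95% interval 0.758 to 1.04, adjusted p = 0.640, limma). Cdc25b (380, 341, 633 and 381 in KO, 554, 383, 574 and 508 in WT) had an unusually high KO3 value, and without KO3 its log2 difference went from -0.24 to -0.42, whereas it was -0.11 without KO4 and -0.13 without WT3. The checkpoint kinase Chek1 had 1176, 1025, 486 and 846 reads in KO and 1211, 1321, 905 and 1091 in WT, with KO3 lowest by far. Without KO3 the log2 difference of Chek1 went from -0.41 to -0.17. Chek2, which answers to DNA breaks, had a log2 difference of -0.13.

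Licensing and replication fork genes leaned to lower values in KO without any of them passing the test. Of 14 members 13 had a negative log2 difference, against 6784 of all 13558 transcripts. The median was -0.10, and 0 passed an unadjusted p under 0.05. The genes were measured in the same libraries, so their signs are not independent. Without KO3 the difference was 0.01 for Gmnn, 0.13 for Orc6, 0.11 for Pcna and 0.00 for Mcm5. Mcm2 (-0.17), Mcm3 (-0.31), Mcm7 (-0.09), Cdc45 (-0.10) and Cdt1 (-0.08) moved further below 0 without KO3. The 6 subunits of the helicase all had a negative difference: Mcm2 -0.13, Mcm3 -0.25, Mcm4 -0.35, Mcm5 -0.04, Mcm6 -0.28 and Mcm7 -0.08. Mcm3 had 5517, 5653, 6505 and 5146 normalized reads in KO1 to KO4 and 7690, 6235, 6745 and 6409 in WT1 to WT4. KO3 alone exceeded a WT library, and the change was 0.840-fold (95% interval 0.678 to 1.04, adjusted p = 0.607, limma). The log2 difference of Mcm3 was -0.31 without KO3, with an unadjusted p under 0.05, but -0.14 without KO4 and -0.17 with day as a block, where it did not pass.

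Mcm4 had 4332, 4813, 2918 and 4070 reads in KO and 5369, 5769, 4445 and 4771 in WT. KO2 was above WT3 and WT4, and KO3 was the lowest of the 8. The change was 0.787-fold (95% interval 0.575 to 1.08, adjusted p = 0.625, limma). Mcm5 had the highest value of all members, with 7844, 9363, 7282 and 7689 reads in KO and 8666, 9972, 6371 and 8390 in WT. Its groups overlapped widely, the lowest library being WT3, and its change was 0.975-fold (0.733 to 1.30, adjusted p = 0.953, limma). The sign of the Mcm5 difference was no longer negative in 4 of 19 alternative fits.

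The helicase subunits form a ring with 1 copy of each, and their levels per kilobase in WT could be set beside each other. Mcm5 stood at 2470 ± 440, Mcm2 at 2259 ± 194 and Mcm3 at 2234 ± 214, where Mcm2 and Mcm3 differed by less than their SDs and Mcm5 from both by less than its own. Mcm6 (1512 ± 155) and Mcm4 (1418 ± 165) also differed by less than their SDs, above Mcm7 (1173 ± 61.7, SD, n = 4). The levels of the loading factors were lower: Orc6 stood at 997 ± 95.7, Cdt1 at 925 ± 66.3, Orc2 at 613 ± 89.8, Orc1 at 497 ± 36.7 and Cdc6 at 404 ± 54.8. Geminin, the inhibitor of Cdt1 encoded by Gmnn, stood at 1472 ± 125 (SD, n = 4). Between genotypes Cdt1 and Gmnn changed 0.987-fold (0.754 to 1.29) and 0.952-fold (0.703 to 1.29), and Cdc6 0.920-fold (0.706 to 1.20). Pcna, the sliding clamp of the replication fork, changed 1.01-fold (0.773 to 1.32), and Cdc45, which joins the helicase when an origin fires, 0.951-fold (0.789 to 1.15). Among the Orc genes KO3 again gave the low value: Orc2 had 2387, 2125, 1071 and 1841 reads in KO and 2090, 2555, 1799 and 2293 in WT, and its log2 difference went from -0.27 to -0.06 without KO3.

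Mitotic genes showed no shared direction. Of 10 members 7 had a negative and 3 a positive log2 difference, with a median of -0.04, and 0 passed an unadjusted p under 0.05. Plk4, the kinase that starts the copying of centrioles, had 702, 738, 429 and 629 normalized reads in KO1 to KO4 and 850, 809, 811 and 761 in WT1 to WT4. All KO libraries lay below all WT libraries, KO3 farthest. The mean was 624 ± 138 in KO and 807 ± 36.4 in WT (SD, n = 4), 0.760-fold with a 95% interval of 0.554 to 1.04 (adjusted p = 0.589, limma). Without KO3 the groups stayed apart and the log2 difference went from -0.40 to -0.24.

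Cdc20, the activator of the anaphase-promoting complex, lay on the other side. Its values were 3300, 4154, 4488 and 4294 in KO and 2885, 3298, 3554 and 3497 in WT. KO1 lay among the WT libraries and the other 3 above all of them. The change was 1.22-fold (95% interval 0.960 to 1.55, adjusted p = 0.599, limma), and the log2 difference went from 0.29 to 0.37 without KO1, with an unadjusted p under 0.05, but to 0.21 without KO4 and to 0.18 with the trend with GC content and length removed, where it did not pass. Bub1b, a spindle checkpoint protein with the highest value of the mitotic list, had 4775, 4633, 3929 and 4262 reads in KO and 4476, 4357, 4432 and 4588 in WT. The KO libraries lay on both sides of the WT libraries, and the change was 0.983-fold (0.818 to 1.18, adjusted p = 0.952, limma). Its partner kinase Bub1 had 2946, 2438, 834 and 1930 reads in KO and 2639, 2904, 2257 and 2736 in WT. KO3 was lowest by far, and without it the log2 difference of Bub1 went from -0.49 to -0.15. Plk1, Aurka and Aurkb, the other kinases of mitosis, had differences of 0.00, 0.06 and 0.14. Mad2l1 and Fbxo5, which hold back the anaphase-promoting complex, had -0.09 and -0.05, and Skp2, a ligase subunit that removes Cdk inhibitors, -0.05.

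**Figure D3:**
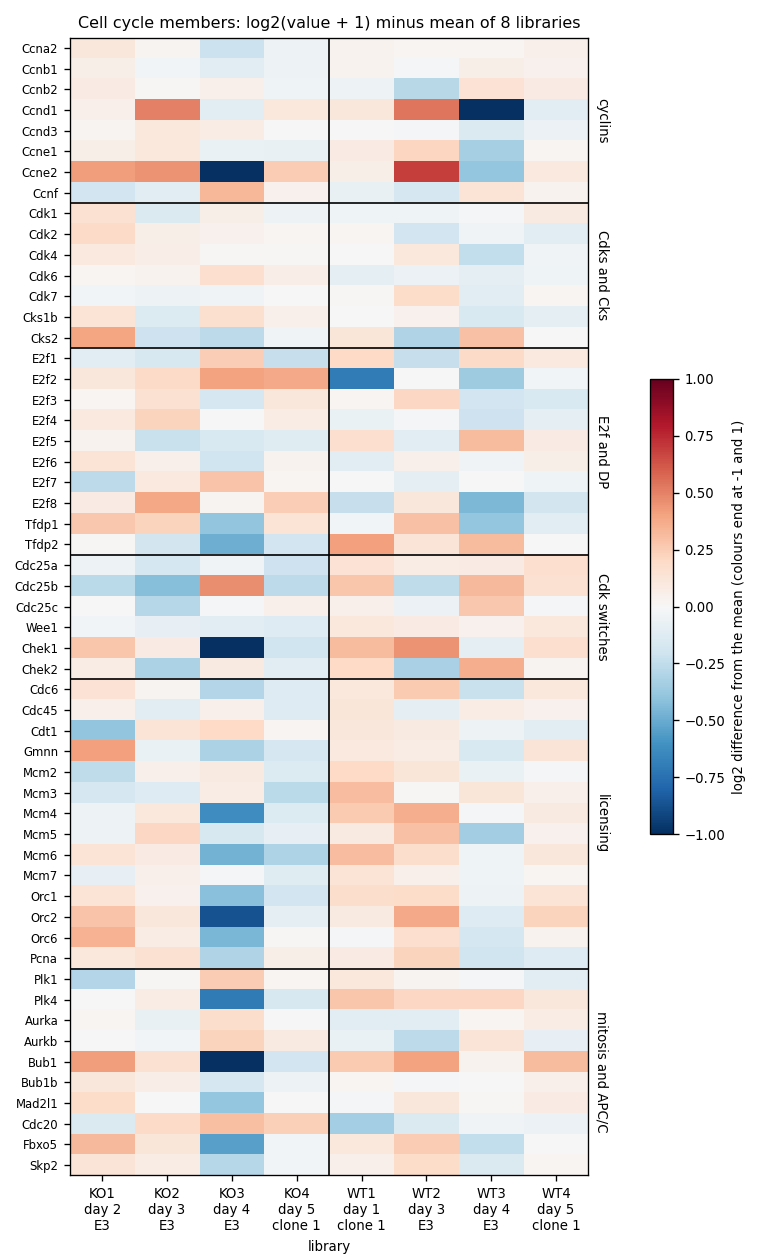
Colour shows log2(value + 1) of each member (vertical axis, by role) in each library (horizontal axis, with its day and clone) minus the mean of the 8 libraries, from blue (lower) to red (higher), with full colour at a difference of 1 or more. The darkest cells are in the KO3 column (Ccne2, Bub1, Chek1, Orc2) and at Ccnd1 in WT3.

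KO3 stood apart from the other KO libraries among the members. Against the mean of the other 3 KO libraries, KO3 was lower by over 0.5 on the log2 scale for 9 members: Ccne2, Tfdp1, Chek1, Mcm4, Orc2, Orc6, Plk4, Bub1 and Fbxo5. That is 16.4% of the members, beside 19.99% of all transcripts, a share near that of the whole table. The largest were Ccne2 (-1.95), Bub1 (-1.52), Chek1 (-1.05) and Orc2 (-0.98). These 9 members have transcripts poor in G and C, with a median GC content of 44.4% (36.3 to 46.8%) against 49.6% (40.8 to 58.8%) for the other 46. Over the 55 members the difference of KO3 went with GC content at a Spearman rho of 0.72, and that of KO1 at -0.80. Over the 13461 transcripts with a GC value the rho was 0.64 and -0.61. For transcript length, rho over the members was -0.03 in KO3 and -0.12 in KO1. The points share the same libraries, and each library is measured against the others, so these are descriptions only. WT3, of the same day and clone as KO3, was below the other WT libraries for 8 of these 9 members and for 30 of the other 46, with a log2 difference of -0.67 for Ccne2 and -0.41 for Chek1.

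**Figure D4:**
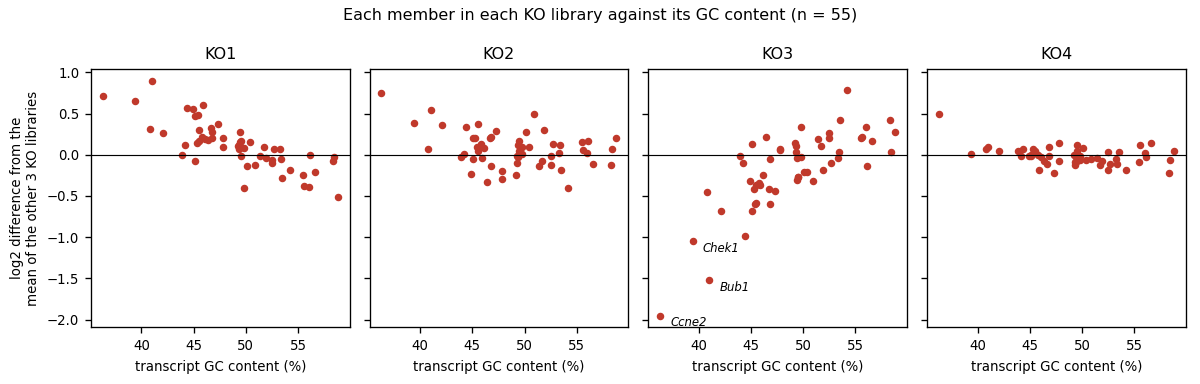
Each point is 1 of the 55 members; the horizontal axis is the GC content of its transcript in percent and the vertical axis its log2 difference in that KO library from the mean of the other 3 KO libraries. Points fall from left to right in KO1 (rho -0.80), rise in KO3 (rho 0.72), where Ccne2, Bub1 and Chek1 are lowest, and lie close to 0 in KO4 but for Ccne2.

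With KO3 left out, 4 members passed an unadjusted p under 0.05, against 10.7% of all transcripts: E2f8 was higher, and Cdc25a, Cdc25b and Mcm3 were lower. E2f2 and Tfdp2 were not among them. With the trend of each library with GC content and length removed, 5 members passed against 9.72%, namely Cdk6, E2f2 and E2f8 on the higher side and Cdc25a and Mcm3 on the lower. Ccnd3 then had a log2 difference of -0.02, so that its higher level in KO did not hold. The part of GC content in the remaining differences was not tested.

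Libraries of the same day varied together, so the genotypes were also compared within days 3, 4 and 5. With day as a block over these 6 libraries, 7 of the 55 members passed an unadjusted p under 0.05 (12.7%), against 19.2% of all transcripts, and 0 an adjusted one. E2f2, E2f8 and Cdc20 were higher, and Chek1, Mcm4, Orc2 and Bub1 were lower. E2f8, Chek1, Orc2 and Bub1 were named after their values were seen, and E2f2, Cdc20 and Mcm4 by rule. Cdc20 gave the most even differences, at 0.33, 0.34 and 0.30 on the log2 scale on days 3, 4 and 5. E2f8 gave 0.27, 0.48 and 0.43 and E2f2 0.20, 0.77 and 0.40. Bub1 gave -0.25, -1.44 and -0.50, Chek1 -0.36, -0.90 and -0.37, Orc2 -0.27, -0.75 and -0.32 and Mcm4 -0.26, -0.61 and -0.23. In these 4 the day 4 difference, between KO3 and WT3, was the largest. Tfdp2, with -0.31, -0.80 and -0.19, just missed the unadjusted p. With the trend with GC content and length removed in the same block, 5 members passed (9.09%, against 16.0% of all transcripts), and E2f8, Orc2 and Bub1 were the only ones of the 7 among them. The log2 difference then went from -0.54 to -0.17 for Chek1, from -0.73 to -0.43 for Bub1, from -0.44 to -0.26 for Orc2, from -0.37 to -0.22 for Mcm4 and from 0.32 to 0.20 for Cdc20. Bub1 was the only member past 1.5-fold with day as a block, where the share of all transcripts past 1.5-fold is not given. None of the 7 had an adjusted p under 0.05 (limma).

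**Figure D5:**
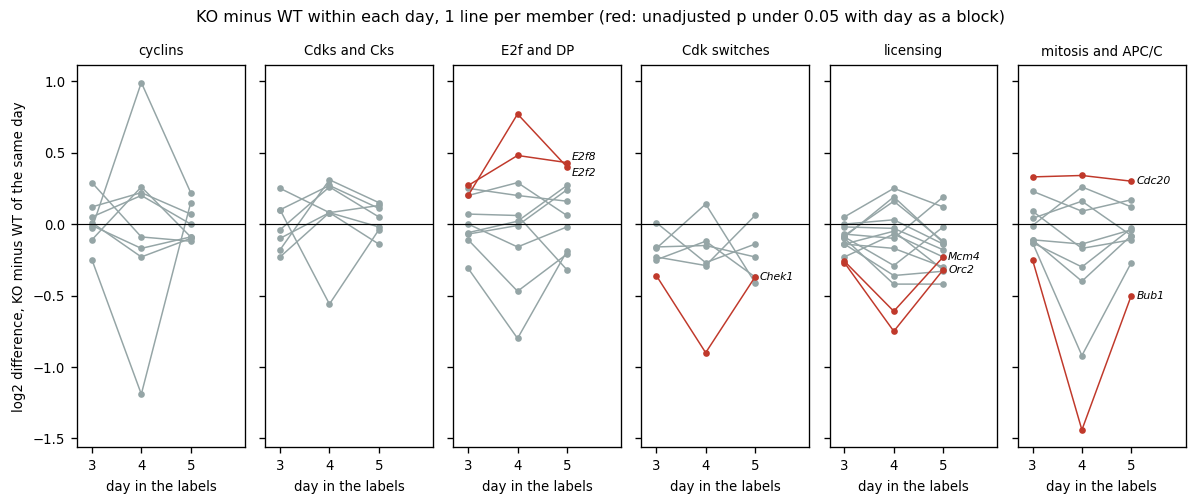
Log2 difference between the KO and the WT library of the same day (vertical axis) for days 3, 4 and 5 of the labels (horizontal axis), 1 panel per role and 1 line per member. Red lines are the 7 members past the unadjusted p when the day is a block; Cdc20 is level at 0.30 to 0.34, and Bub1, Chek1, Orc2 and Mcm4 dip on day 4.

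Other genes of DNA replication, mitosis and cell cycle control, taken from lists chosen by function, were set beside the members. Of 105 genes 4 passed an unadjusted p under 0.05 (3.81%), below the 9.09% of all transcripts. 1 was higher, as were 4.62% of all transcripts, and 3 were lower, as were 4.46%. The median log2 difference was -0.08 against 0.00 for all transcripts. Among 37 further replication genes Tk1, the thymidine kinase of the salvage pathway, was higher, with 951 to 1192 normalized reads in KO and 708 to 811 in WT (log2 difference 0.47, adjusted p = 0.446, limma). Pole, the catalytic subunit of DNA polymerase epsilon, was lower (2485 to 3056 against 3066 to 3988 reads, log2 difference -0.33, adjusted p = 0.543). Among 40 further mitotic genes only Cenpf, a kinetochore protein, passed, at a log2 difference of -0.98 (adjusted p = 0.518, limma), and it did not pass without KO3 (-0.77). Among 28 further regulators only Btrc, a substrate receptor of SCF ubiquitin ligases, passed (728 to 789 reads in KO, 942 to 1164 in WT, log2 difference -0.45, adjusted p = 0.446). None of the 105 had an adjusted p under 0.05. Within days, 16 of the 105 passed the unadjusted p (15.2%, against 19.2% of all transcripts), 2 higher and 14 lower. Of all transcripts 1345 were higher and 1256 lower at this p within days.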

How the data were processed

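mRNA of 8 mES cell libraries (4 KO, 4 WT) was analysed from 1 deposited table of normalized signal values. The authors aligned reads to mm10 with Bowtie2 2.2.1, counted them per RefSeq transcript in Partek 6.6, used DESeq2 for normalization, applied a batch correction, raised values under 1 to 1 and left out weakly expressed transcripts. The deposited signal values are therefore not raw counts. For each of the 13350 transcripts with no value at this floor the clone effect was 0 within rounding. Undoing it as whole reads times a factor per library plus a shift per transcript left a single whole-read solution for 13463 transcripts (99.3%), all 55 members included. Those reads give the depth and the alternative fits on reads. The read recovery was checked on simulated data. 0 columns of samples were left unused.

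All 13558 transcripts were fitted with a model of genotype and clone on log2(value + 1) in limma (version 3.58.1, R version 4.3.3), with Benjamini-Hochberg adjustment of the p-values over the whole table. Intervals are 95% intervals of this fit, and a fold change is that of value + 1, so that the change of a low transcript comes out too small. Levels per kilobase divide the deposited value by the length of the longest RefSeq-linked GENCODE vM21 transcript of the symbol (GRCm38), which also gave GC content, for 55 of 55 members and 13461 transcripts. The limits on the members are those of 4 libraries a group. Members of families with similar sequence were counted by the authors' own assignment, and the sources used here do not say how strand or shared reads were treated.

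Same-day libraries deviated together with the clone correction undone (correlations over transcripts of 0.54, 0.63 and 0.52 for days 3, 4 and 5, against a median of -0.18 over 13 pairs of different days), so the labels' day was used as the block, over 6 libraries. The day 5 pair gave -0.23 before the correction was undone.

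The members, the role lists and the other lists were chosen with earlier results of these data known. Values in every library were given for members with an unadjusted p under 0.05 or no overlap of the groups, and in each role for the 2 smallest p and the highest mean. Further members are named where 1 library or the block changed them, after their values were seen. Alternatives were another pseudocount (10), a mean of at least 50, no clone term, the block, the correction undone, voom on recovered reads with and without the block, untransformed values, median centring, leaving out each library, and, chosen after seeing the data, removal of the trend with GC content and length with and without the block. Other steps ran in Python 3.11.15 (matplotlib 3.10.9, numpy 2.4.6, pandas 2.3.3, scipy 1.17.1).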

Additional observations from a re-analysis of the deposited data

Results flagged for a closer look

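In 110 groups of 4 libraries (55 members, 2 genotypes), a single library lay far from the other 3 in 2 groups by Dixon's test at the 95% level, where chance flags about 1 group in 20. Both were in KO3. Ccne2 had 68.9 normalized reads in KO3 against 247 to 283 in the other KO libraries, a gap of 0.833 of the range. Cdc25b had 633 in KO3 against 341 to 381, a gap of 0.862 of the range. With the clone correction undone neither gap was past the critical value, at 69.3 and 607 reads in KO3.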

How the results depend on the processing

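The count of members with an unadjusted p under 0.05 was 2 of 55. It was 4 with a mean of at least 50 (7.27%, against 9.26% of all transcripts), 5 with no clone term (9.09%, against 14.0%), 4 with voom on recovered reads (7.27%, against 9.52%) and 9 of untransformed values (16.4%, against 9.73% of all transcripts). With the replicate block by day over 6 libraries it was 7 (12.7%, against 19.2%), and 14 with voom and the same block (25.5%, against 23.6% of all transcripts). With the trend with GC content and length removed, a setting chosen after seeing the data, it was 5 (9.09%, against 9.72%). It was 5 too with the block and the trend removed (against 16.0%), of which E2f8, Orc2 and Bub1 were among the 7 of the block alone and Cdk6 and Cdc25a were not. Leaving out each library gave 0 to 4: 0 without KO4 (against 3.26% of all transcripts) or WT3 (9.56%), 1 without KO2 (7.39%) or WT1 (6.46%), and 4 without KO3 (10.7%). The count past the fold change criterion was 1 in place of 0 with the block and with voom with and without the block, and 0 to 1 leaving out each library, with 1 without WT2 and without WT4. The share of all transcripts past this criterion is given for the main fit only (4.25%). These counts can therefore not be set against the whole table. E2f2 was the member past the criterion with voom alone and without WT2 or WT4, and Bub1 with the block, by voom too. Of the 105 other pathway genes 4 passed the unadjusted p. Within days this number was 16 (against 19.2% of all transcripts) and by voom on the same 6 libraries 26 (against 23.6%). It was 12 within days once the trend was removed (against 16.0%). Leaving out each library gave 2 to 4, with 2 without KO4 (against 3.26%) and without WT1 (against 6.46%). No member passed an adjusted p in the 19 alternatives with limma, for genotype or, in those where it could be fitted, for genotype by clone, which could not be fitted without KO4. The Trim71 difference stayed negative in all 19, from -2.70 to -1.81 leaving out each library. The causes of these changes were not tested.

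Among the 22 members whose values are given in every library, 16 were named by rule and 6 after their values were seen. A difference changed sign for 6 of the 22, all with an unadjusted p over 0.05 in the main fit and where the sign changed. With untransformed values the difference of Ccnd3, at 0.11, had an unadjusted p under 0.05. Leaving out each library, Ccnd1 ran from -0.15 (without WT3) to 0.71, Cdk4 from -0.01 (without WT3) to 0.18, Mcm5 from -0.23 to 0.11 (without WT2) and Bub1b from -0.06 to 0.02 (without KO3). Ccnd3 came to -0.02 with the trend removed and -0.06 with the block and the trend removed. Mcm5 came to 0.00 with voom and the block and without KO3, and to 0.03 without KO4, and Bub1b to 0.01 without KO4. Ccne2 came to 0.24 without KO3, 0.16 without WT2, 0.16 with the trend removed and 0.10 with the block and the trend removed, and to as low as -0.41 leaving out the other libraries. The block took Tfdp2 above the unadjusted p and brought Mcm4, Cdc20, E2f8, Chek1, Orc2 and Bub1 under it, and changed no other call among these 22. The number of members whose groups do not overlap was 7 (10.1% of all transcripts), 5 with the clone correction undone (6.90%) and 12 without KO1 (17.5%). The fewest recovered reads of a member in a library were 75 (Ccne2 in KO3), and counting error was not set apart from the spread between libraries.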
